A study of Mus musculus with 4 samples.

Results

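The Snai, Twist, Zeb and Prrx genes encode 4 small families of DNA-binding transcription factors, and their levels were read here in CD8+ T cells and mesenchymal stroma cells (MSCs) that had been sorted out of tumors in wild-type (Wt) and Sipa1-/- mice. The members are Snai1, Snai2, Twist1, Twist2, Zeb1, Zeb2, Prrx1 and Prrx2. They were found by matching the accession of every array spot that is not a control to a gene symbol, which gave 13 member probes, 1 spot each, for 8 of the 22911 symbols on the array. Snai1, Snai2, Twist1 and Twist2 had 1 probe each, Zeb1, Prrx1 and Prrx2 had 2, and Zeb2 had 3.

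The mice were C57BL/6Ncr animals of 8 weeks, either Wt or lacking Sipa1, which encodes a GTPase-activating protein that turns off the small GTPase Rap1. Both genotypes received 15000 Bcr-Abl+ hematopoietic progenitor cells (HPCs), which carry GFP and cause a disease like chronic myelogenous leukemia, under the skin in Matrigel, and tumors were taken on day 12. The MSC sort took cells negative for GFP, CD45, Ter119 and CD31, so that it was defined by what the cells lacked, and the CD8+ T sort took GFP-negative cells positive for TCRβ and CD8. RNA was hybridized in 1 color to 4 Agilent arrays, 1 for each cell type and genotype, and the series' design text gives 5 mice per genotype without saying how they entered each array. With 1 array per condition no difference has a replicate check, no test or p-value was computed, and the number of arrays limits the precision. Because the Sipa1-/- mice lacked the gene in all cells and not in 1 cell type, a difference in either sort cannot be assigned to loss of Sipa1 in that sort.

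These factors are best known for the epithelial-mesenchymal transition (EMT), in which epithelial cells give up their junctions and gain motility. Snai and Zeb proteins are zinc-finger repressors that bind E-box sequences, Twist proteins are basic helix-loop-helix (bHLH) factors that bind E-boxes as dimers, and Prrx proteins are paired-related homeobox factors of embryonic limb and craniofacial mesenchyme. In adult tissue they also mark fibroblasts and other stromal cells that were never epithelial, and Zeb1 and Zeb2 are in addition used by T cells, where Zeb2 acts in terminal effector and Zeb1 in memory CD8+ T cells.

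Since Snai, Zeb and Twist factors bind E-boxes, and some act on each other's genes, the 250 bases before the annotated start of their own genes are shown as the place where such sites could lie. The RefSeq promoter table of build GRCm38.p6 had entries for 6 of the 8 members, all but Snai2 and Zeb1. The windows of Prrx1 and Prrx2 are not shown. Windows before the outermost annotated start of Snai1, Twist1, Twist2 and Zeb2 follow, 5′ to 3′ on the gene's strand, with any E-box (CANNTG, read on both strands) in capitals.
Snai1, chr2:167537945-167538194, plus strand: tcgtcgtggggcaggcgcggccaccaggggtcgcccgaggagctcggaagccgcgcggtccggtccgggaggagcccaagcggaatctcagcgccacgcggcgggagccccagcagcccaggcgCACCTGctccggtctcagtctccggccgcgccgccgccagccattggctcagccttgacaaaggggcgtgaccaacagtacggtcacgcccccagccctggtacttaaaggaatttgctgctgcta
Twist1, chr12:33957421-33957670, plus strand: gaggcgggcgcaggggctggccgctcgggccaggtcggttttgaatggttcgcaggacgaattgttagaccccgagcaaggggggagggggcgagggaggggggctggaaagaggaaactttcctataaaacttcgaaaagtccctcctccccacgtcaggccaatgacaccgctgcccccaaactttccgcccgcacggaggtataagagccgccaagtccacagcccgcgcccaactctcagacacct
Twist2, chr1:91801211-91801460, plus strand: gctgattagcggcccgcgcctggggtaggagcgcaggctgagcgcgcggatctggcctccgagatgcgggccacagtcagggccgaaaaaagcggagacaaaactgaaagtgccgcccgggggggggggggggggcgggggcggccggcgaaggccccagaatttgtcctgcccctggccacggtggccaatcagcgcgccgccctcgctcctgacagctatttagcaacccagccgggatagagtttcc
Zeb2, chr2:45117443-45117692, minus strand: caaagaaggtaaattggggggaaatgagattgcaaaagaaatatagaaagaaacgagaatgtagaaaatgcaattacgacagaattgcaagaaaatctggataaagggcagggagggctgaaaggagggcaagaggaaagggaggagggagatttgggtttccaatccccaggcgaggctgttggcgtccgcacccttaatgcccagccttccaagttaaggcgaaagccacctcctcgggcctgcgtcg
The Snai1 window held 1 E-box, CACCTG, whose first base lay 126 bases before the start, and the other 3 windows held none. CACCTG is the same site as CAGGTG on the opposite strand, the form that Snai and Zeb zinc fingers are known to prefer. Among 32851 windows of this length, from 27025 genes and not limited to the outermost start, 66.2% held a CANNTG and 17.2% held a CAGGTG on either strand. TAATTA, a core that many homeobox factors bind, was in none of the 4 windows and in 4.84% of all windows. The GC content was 70.0% for Snai1, 68.8% for Twist2, 62.4% for Twist1 and 49.6% for Zeb2. A match is a description of letters and no evidence of binding.

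Values below are log2 of the processed spot intensity minus the 75th percentile of each array, so that 0 is the level of a spot at that percentile, and they compare arrays for 1 probe and never 1 probe with another. A probe counted as measured when it passed the 5 quality flags named in the study's methods on both arrays compared. Of 59305 spots that are not controls, 60.3% to 65.3% were well above background on the 4 arrays, and the lowest such signal lay between -5.86 and -5.49. Among 300 probes printed on several spots, the median SD of the log2 signal within an array was 0.040 to 0.045, which puts the spot noise of a ratio at 0.063. For the replicated probes below -2 the SD was 0.14 to 0.42, and none of this covers the spread between mice. The 2 Sipa1 probes averaged 4.04 in Wt and 2.62 in Sipa1-/- MSCs, and 4.42 and 2.56 on the CD8+ T arrays, lower in both Sipa1-/- sorts but still well above background. Whether these probes lie in the deleted part of the gene is not given in the sources used here. Both MSC arrays held bright granulocyte and erythroid transcripts. The Wt MSC array stood apart by bright B-lineage transcripts, and both CD8+ T arrays held fibroblast transcripts, with values after those of the members.

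On the MSC arrays all 8 factors were higher in the Sipa1-/- sort than in the Wt sort, and 6 of them by at least 2-fold. This held for both Snai, both Twist and both Prrx genes, with log2 ratios between 1.55 and 1.91, whereas Zeb1 and Zeb2 stayed under 2-fold, although Zeb1 passed it at 1.18 with the scale of the series matrix. The direction held with a median shift, quantile normalization and the series matrix. Fibroblast markers had a median of 1.56 in the same pair, above the ratios of Zeb1, Zeb2 and Prrx2. The median over the 8 was 1.66, beside 0.04 over the 15283 genes measured. At the same limit, 19.3% of all measured genes were higher and 11.3% lower on the Sipa1-/- array, so that a gene at this distance was not rare. In RNA of a sorted population, more cells of a type and more RNA per cell cannot be told apart.

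Snai1, a repressor of E-cadherin that is also induced in activated fibroblasts, had a level of 0.04 in Wt MSCs and 1.95 in Sipa1-/- MSCs. On the CD8+ T arrays it had -1.18 in Wt and -2.55 in Sipa1-/- cells. The MSC pair therefore differed by 1.91 on the log2 scale, or 3.76-fold, with the Sipa1-/- array higher, and the CD8+ T pair by -1.37, or 2.59-fold, with the Wt array higher. Snai1 was the only member below 0 in the CD8+ T pair, where 0.719% of genes had a lower ratio. In the MSC pair 4.30% of genes had a higher ratio.

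Snai2, known as Slug and active in neural crest and dermal fibroblasts, read -0.11 in Wt and 1.68 in Sipa1-/- MSCs. The CD8+ T arrays had it dim, at -5.05 in Wt and -4.19 in Sipa1-/- cells, close to the lowest signals well above background. The ratio was 1.79 in MSCs, or 3.47-fold, and 0.86 in CD8+ T cells, or 1.81-fold. Both sorts were higher in Sipa1-/-, and the MSC levels stood far above the CD8+ T levels in both genotypes.

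Twist1, a bHLH factor of cranial and limb mesenchyme, was at -1.38 in Wt and 0.27 in Sipa1-/- MSCs, a ratio of 1.65 or 3.15-fold. On the Wt CD8+ T array its spot, at -6.99, was not well above background, and on the Sipa1-/- CD8+ T array it was at -4.83. Set against the lowest signal well above background on the Wt array, the Sipa1-/- CD8+ T level was at least 1.66-fold higher, so that Twist1 is not counted in that pair.

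Twist2, known as Dermo1 from its expression in dermis, was at 1.03 in Wt and 2.69 in Sipa1-/- MSCs. Among CD8+ T cells it was at -4.48 in Wt and -2.76 in Sipa1-/- cells. The ratio was 1.67 or 3.17-fold for the MSC pair and 1.72 or 3.29-fold for the T cells, where it was dim, and with normexp background correction it was 1.61 and 0.61. Against all genes they stood differently, because 7.53% of genes had a higher ratio in the MSC pair and 0.545% in the CD8+ T pair.

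Zeb1 was read by 2 probes that did not pass alike. The brighter was at -0.24 in Wt and 0.43 in Sipa1-/- MSCs, where it failed the flag for uniform background, and at -0.44 and -0.54 in Wt and Sipa1-/- CD8+ T cells. The dimmer was at -2.83 and -1.86 in Wt and Sipa1-/- MSCs, and at -2.73 and -2.32 in CD8+ T cells. The MSC ratio of 0.97, or 1.96-fold, rests on the dimmer probe, just inside the 2-fold limit, the flagged spot would give 0.67, and normexp correction gave 0.61. In CD8+ T cells the probes differed in sign, -0.09 for the brighter and 0.41 for the dimmer, with a mean of 0.16.

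Zeb2, the other zinc-finger homeobox factor, had the smallest ratio of the 8 genes in MSCs. Its brighter probes were at 1.51 and 1.40 in Wt MSCs and at 1.83 and 1.87 in Sipa1-/- MSCs, and at -0.32 and -0.43 in Wt and -0.04 and -0.49 in Sipa1-/- CD8+ T cells. The third probe was dim, at -3.63 and -2.69 in MSCs, and was not well above background on the Wt CD8+ T array, at -5.40 beside -5.22 on the Sipa1-/- array. The MSC ratio averaged 0.58, or 1.49-fold, over ratios of 0.32, 0.47 and 0.94, and the dim probe gave the largest of them. In CD8+ T cells the 2 measured probes averaged 0.11, with 1 above and 1 below 0.

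Prrx1, which marks limb bud mesenchyme and a fibroblast lineage of adult dermis, was higher in Sipa1-/- MSCs with both probes. One was at 2.14 in Wt and 3.82 in Sipa1-/- MSCs, the other at 1.13 and 3.09. The CD8+ T levels were -2.26 and -3.71 in Wt, and -1.06 and -2.72 in Sipa1-/- cells. The averaged ratio was 1.82, or 3.53-fold, in MSCs and 1.10, or 2.14-fold, in CD8+ T cells, and the single probes spanned 1.68 to 1.96 and 0.99 to 1.21.

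Prrx2, its close relative in embryonic skin and limb, was at 1.90 and 0.75 in Wt MSCs with its 2 probes and at 3.52 and 2.23 in Sipa1-/- MSCs. The same probes read -3.26 and -1.89 in Wt CD8+ T cells, and -1.92 and -1.58 in Sipa1-/- CD8+ T cells. The MSC ratio was 1.55, or 2.93-fold, from 1.63 and 1.48. In CD8+ T cells the probes disagreed, 1.34 against 0.31, and their mean of 0.82, or 1.77-fold, stayed within the limit.

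**Figure D1:**
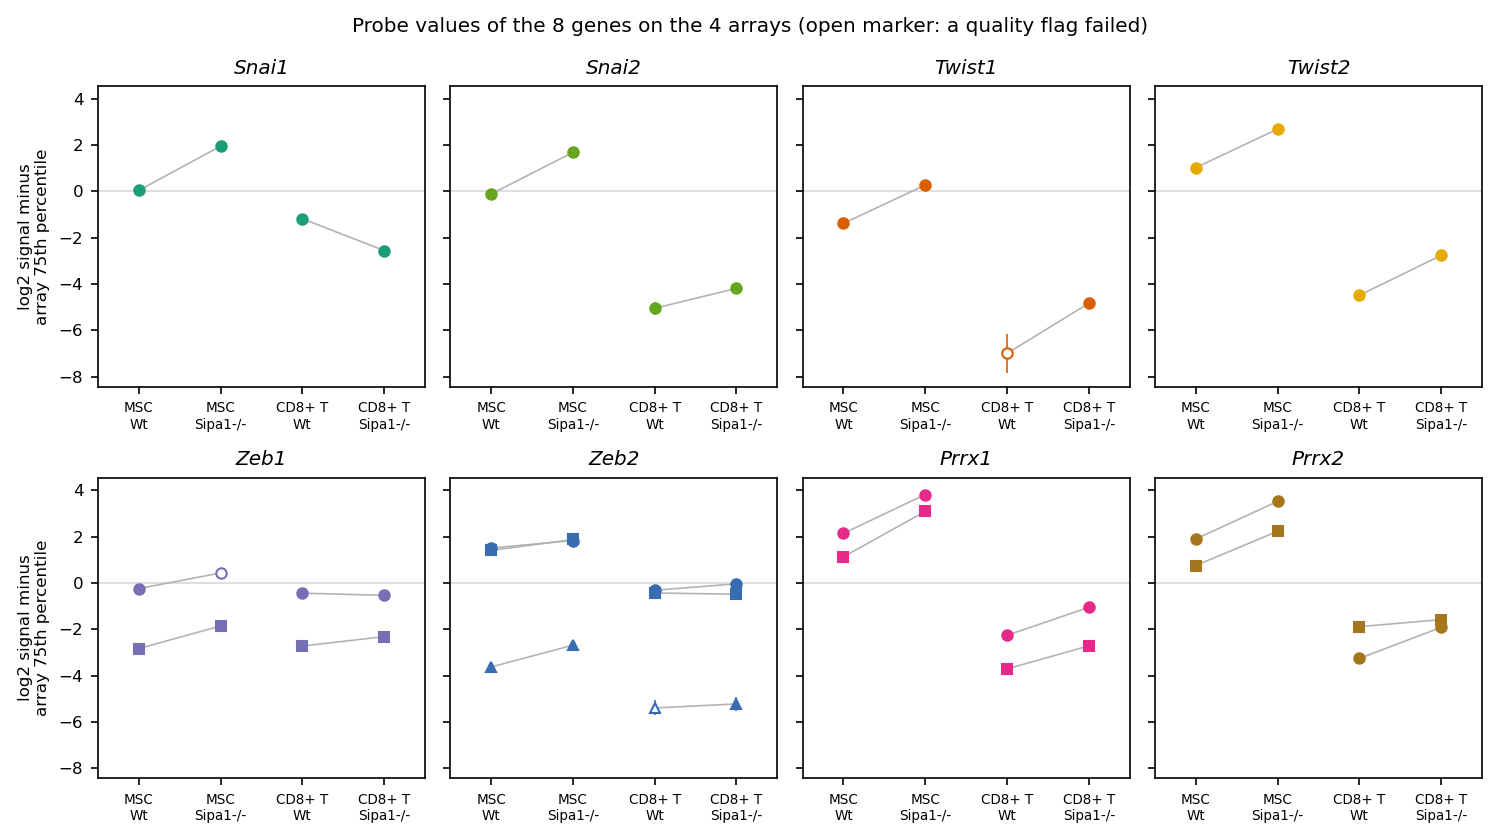
Level of each member probe on the 4 arrays, as log2 signal minus the array's 75th percentile (y axis), with a marker shape per probe, error bars from the scanner software's error estimate and open markers where a flag failed. Filled and open markers of all 8 genes are higher on the Sipa1-/- than on the Wt MSC array, from 0.32 for 1 Zeb2 probe to 1.96 for 1 Prrx1 probe, while Snai1 alone goes down between the CD8+ T arrays with a ratio under -1.

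In the CD8+ T pair, then, 7 factors were measured, 6 had a ratio above 0, and 2, Twist2 and Prrx1, were at least 2-fold higher in Sipa1-/- cells, whereas 1, Snai1, was lower by more than that. Over all 14323 genes measured, 2.66% passed that limit upward and 1.4% downward, and the median was -0.02 beside 0.82 for the members. The Wt and Sipa1-/- arrays of the 2 sorts share no library, but whether the MSC and CD8+ T ratios of a gene differ was not tested. With normexp correction the ratio was 0.61 for Twist2 and 0.56 for Prrx1, and no factor was past 2-fold higher. Snai1 then had -0.87, Prrx2 0.54 and Snai2 0.33. That correction adds an offset of 50 to every intensity, which by construction pulls ratios of dim spots toward 0. The Twist2 spot had intensities of 18.5 in Wt and 55.7 in Sipa1-/- CD8+ T cells. A dependence on background cannot be told apart here from the effect of the offset. Prrx1 also fell short of the limit at 0.95 after a median shift and at 0.97 after quantile normalization. The fibroblast markers, with a median of 1.55, were higher on the Sipa1-/- CD8+ T array as well. The Zeb ratios in CD8+ T cells changed sign with the scaling or the probe, for Zeb2 to -0.03 after a median shift and for Zeb1 to -0.09 with the brightest probe.

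Between cell types, the MSC arrays carried more of nearly every factor. In Wt cells 6 of the 7 measured members were at least 2-fold higher in MSCs than in CD8+ T cells, beside 17.3% of 14210 genes higher and 12.8% lower. Twist2 was 45.5-fold higher, Snai2 30.5-fold, Prrx1 24.6-fold and Prrx2 14.9-fold, and Twist1 was at least 18.2-fold higher against background. The Prrx2 value is the mean, on the log2 scale, of probes at 35.7-fold and 6.24-fold. Zeb2 was 3.56-fold and Snai1 2.33-fold higher, and after a median shift Snai1 had a log2 ratio of 0.99 and 5 members passed the limit. The CD8+ T levels behind the large ratios were low. The log2 values were 5.51 for Twist2, 4.93 for Snai2, 4.62 for Prrx1 and 3.90 for Prrx2. All were smaller with normexp correction, from 3.55 for Twist2 to 2.54 for Snai2, which then lay below both Prrx genes. The Wt CD8+ T intensities were 12.5 for Snai2 and 18.5 for Twist2, under the offset of 50 in that correction. The smaller values and the new order therefore cannot be told apart from the effect of the offset.

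In Sipa1-/- cells 7 of 8 members were at least 2-fold higher in MSCs, beside 21.9% of 14279 genes higher and 18.6% lower. Snai2 had the largest log2 ratio, 5.87, followed by Twist2 at 5.45, Prrx1 at 5.34, Twist1 at 5.10, Prrx2 at 4.63, Snai1 at 4.50 and Zeb2 at 2.25. This order changed with normexp correction, under which Prrx1 had 4.68, Twist2 4.55, Prrx2 4.07, Snai2 3.83, Snai1 3.71, Twist1 2.82 and Zeb2 1.52. Here too the offset pulls ratios with a dim CD8+ T side toward 0 by construction. Snai1 moved most between the genotypes, from 1.22 in Wt to 4.50, because its level was higher in Sipa1-/- MSCs and lower in Sipa1-/- CD8+ T cells. Over the 7 members measured in both genotypes the median was 3.90 in Wt and 4.63 in Sipa1-/- cells, against -0.06 and -0.18 over all genes. Stromal lists described below were high as well. Fibroblast markers had medians of 4.51 in Wt and 4.85 in Sipa1-/- cells. Mesenchymal genes of the EMT programme had 3.26 and 4.63, and other stromal transcription factors 3.12 and 4.49.

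Zeb1 had the smallest ratios between the sorts. Its ratio of MSCs over CD8+ T cells was 0.05 in Wt cells over both probes and 0.46 in Sipa1-/- cells with the dimmer probe alone, and the Wt value went to -0.19 after a median shift and to 0.50 with the scale of the series matrix. The Sipa1-/- value went to 0.71 with no flags and to 0.98 with the scale of the series matrix, and the brighter probe, flagged on the Sipa1-/- MSC array, had 0.97 there. For Snai2, Twist1, Twist2, Prrx1 and Prrx2 the order of the 4 arrays was Sipa1-/- MSCs, Wt MSCs, Sipa1-/- CD8+ T cells and Wt CD8+ T cells from high to low, with Twist1 lowest where it was not well above background. For Snai1 the CD8+ T arrays changed places, and for Zeb2 they had no settled order, since its probes differed in sign. Zeb1's passing dim probe ran from Sipa1-/- MSCs over Sipa1-/- CD8+ T cells and Wt CD8+ T cells to Wt MSCs, but there the Wt arrays differed by 0.11, less than the SD of dim replicated probes on these arrays, 0.170 and 0.217.

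**Figure D2:**
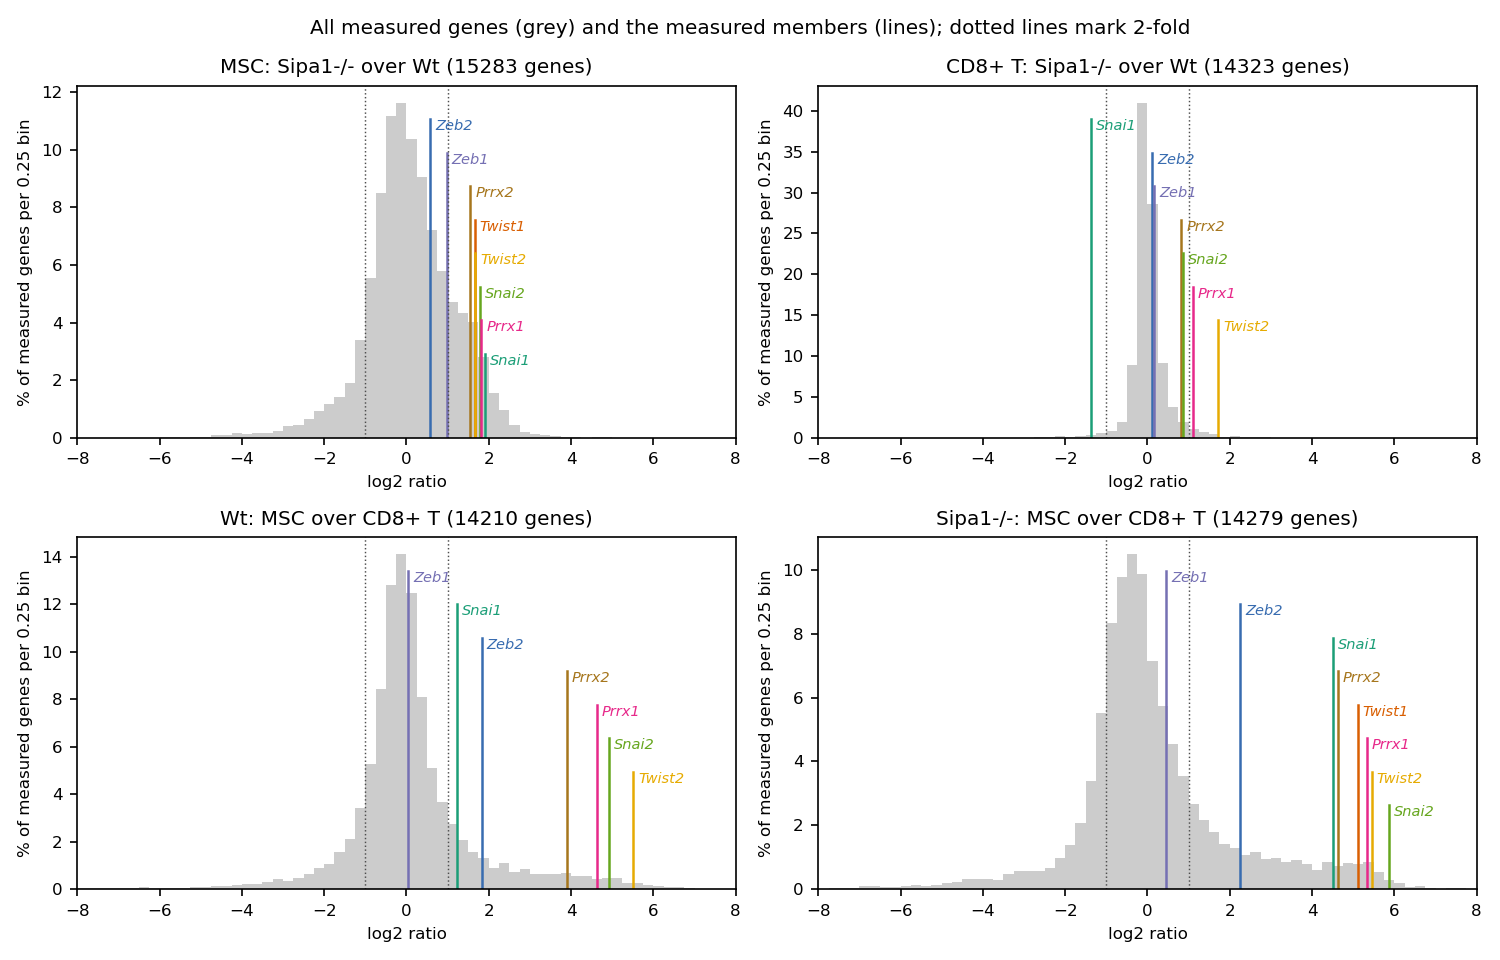
Log2 ratio (x axis) of all measured genes as a histogram in percent of genes per bin (y axis), with colored lines at the measured members and dotted lines at 2-fold, for both genotype pairs and both cell type pairs. In the MSC pair 6 of 8 lines lie past the upper limit in a broad histogram with 19.3% of genes there, in the CD8+ T pair 2 of 7 lie there in a narrow one with 2.66%, and in both cell type pairs all members but Zeb1 lie past it.

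Markers of cells other than the sorted type were measured on every array, and some moved with the members. All 13 measured of 15 fibroblast markers, among them collagen genes and Pdgfrb, were higher in Sipa1-/- MSCs, 9 by at least 2-fold, with a median of 1.56 that lies near the members' 1.66. The summed level of all 15 listed fibroblast markers, flagged spots included, was 10.1 on the log2 scale in the Wt and 10.9 in the Sipa1-/- MSC sample. The abundant collagens were close to even, at 0.26 for Col1a1 and 0.35 for Col1a2, whereas Fap had 2.04 and Mfap5 2.04. All 13 measured of 14 B-lineage markers were at least 2-fold lower on the Sipa1-/- MSC array, with a median of -4.16, and Vpreb1, a part of the surrogate light chain of B-cell precursors, was at 7.57 in Wt and 3.45 in Sipa1-/- MSCs. All 10 pan-leukocyte markers were lower too, with a median of -2.01, although the sort was for CD45-negative cells.

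On the CD8+ T arrays T-cell markers were bright, with Cd3d at 6.95 in Wt and 6.88 in Sipa1-/- cells, and all 13 differed by less than 2-fold between the genotypes. Fibroblast markers were there as well, with none of the 15 under background on either array. One of them, Thy1, is also on the T-cell list, at 7.37 in Wt and 7.46 in Sipa1-/- CD8+ T cells, above its MSC levels of 5.41 and 6.55. Of these 15, 14 were higher in Sipa1-/- CD8+ T cells and 11 by at least 2-fold, with a median of 1.55 and Col1a2 at 4.24 in Wt and 5.77 in Sipa1-/- cells, although T cells are not known to make fibrillar collagen. Granulocyte markers moved the other way, 7 of 9 at least 2-fold lower and a median of -1.27, with S100a8 at 6.99 in Wt and 5.52 in Sipa1-/- cells. Erythroid markers had a median of -1.07, with 4 of 6 measured at least 2-fold lower.

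The part of these markers in the members' ratios was not tested. In a scaling chosen after the data were seen, the median ratio of the fibroblast markers was subtracted in each pair. This takes 1 constant from every gene and so gives only the distance of each member from these markers. In MSCs the members then had 0.35 for Snai1, 0.26 for Prrx1, 0.24 for Snai2, 0.11 for Twist2, 0.10 for Twist1 and -0.00384 for Prrx2. Zeb2 had -0.98 and Zeb1 -0.58, so the 2 Zeb genes stood farthest below the fibroblast markers. Among T cells Twist2 had 0.17 and the other measured members lay below the markers, from -0.45 for Prrx1 to -2.93 for Snai1.

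The remaining marker lists had smaller medians. In the MSC pair they were 0.98 for macrophages and monocytes, 0.68 for adipocytes, 0.67 for pericytes and smooth muscle, 0.67 for T cells, 0.61 for keratinocytes, 0.50 for Schwann cells, 0.49 for skeletal muscle, 0.33 for endothelium, 0.24 for granulocytes and -0.08 for erythroid cells. In the CD8+ T pair the medians of these lists apart from granulocytes and erythroid cells, and of the B-lineage and pan-leukocyte lists, lay between -0.33 for Schwann cells and 0.21 for adipocytes. In that pair 3 of 12 measured B-lineage markers and none of 10 pan-leukocyte markers were at least 2-fold lower. Granulocyte and erythroid markers were bright on both MSC arrays, although the sort took cells negative for CD45 and Ter119. Their summed levels in Wt and Sipa1-/- MSCs were 9.52 and 9.68 for granulocytes, and 8.61 and 8.68 for erythroid cells. S100a9 was at 8.40 and 8.50 there, and Slc4a1 at 5.09 and 5.01.

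**Figure D3:**
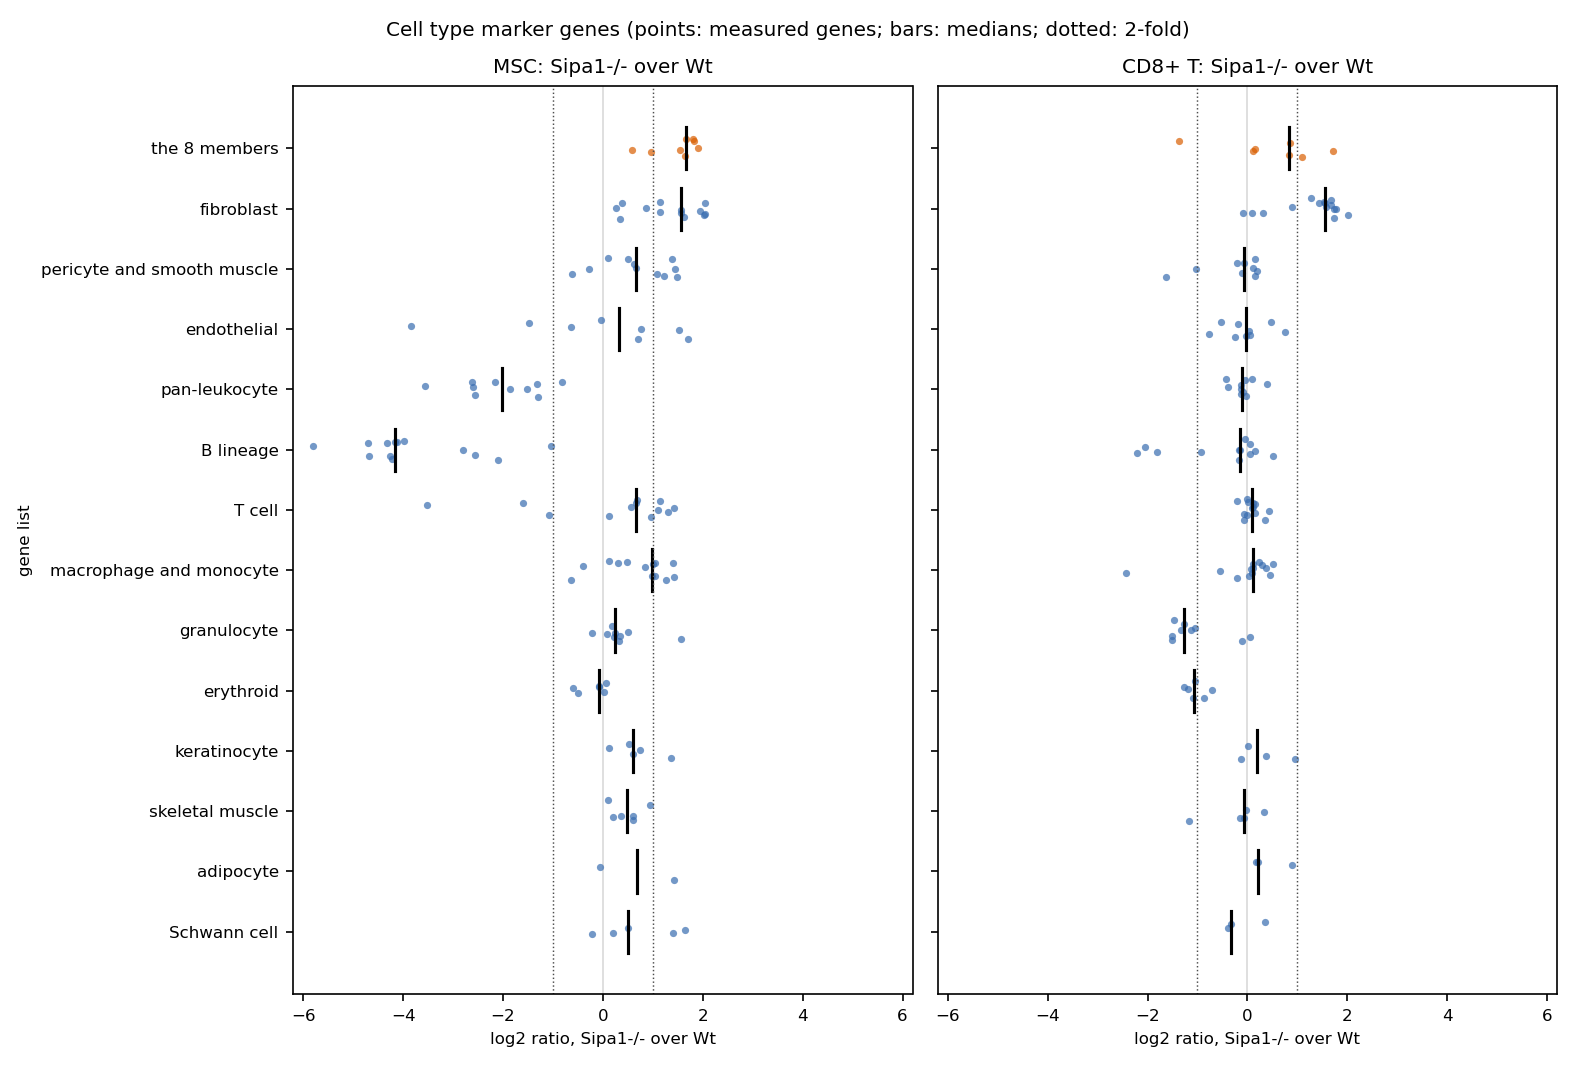
Log2 ratio of Sipa1-/- over Wt (x axis) for each measured gene of 13 cell type marker lists and for the members (y axis), with bars at the medians and dotted lines at 2-fold. The members, at 1.66, sit beside the fibroblast markers, at 1.56, in MSCs, the B-lineage markers sit at -4.16, and in CD8+ T cells the fibroblast markers, at 1.55, are the list farthest to the right.

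The genes that act with these factors were looked at as 11 lists, 173 genes in all. Of these, 140 were measured in the MSC pair and 58 were at least 2-fold higher in Sipa1-/- cells, beside 19.3% of all measured genes. In the CD8+ T pair 123 were measured and 13 were at least 2-fold higher, beside 2.66%. In MSCs the lists of matrix genes, stromal factors and inducing signals lay to the side of the Snai, Twist and Prrx genes, while the corepressors and the proteins that degrade these factors lay around 0 or below. What part the cell types of the marker lists had in these ratios was not tested.

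Close relatives of the members were measured for 7 of 14 in MSCs, all 7 were above 0 and 4 at least 2-fold higher, with a median of 1.16. Shox2, a homeobox gene near Prrx in sequence, went from -0.81 in Wt to 1.14 in Sipa1-/- MSCs, a ratio of 1.95. Scrt2, a relative of Snai, and Hand2, a relative of Twist, had the smallest, 0.44 and 0.46. Among T cells 5 relatives were measured with a median of 0.06, and Scrt2 at -1.20 was the only one past 2-fold.

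Twist factors bind DNA together with E proteins (Tcf3, Tcf4, Tcf12), and Id proteins take these partners away. In MSCs 6 of the 7 genes were measured, with Id4 at 2.36 and Id2 at 1.77 higher in Sipa1-/- cells and Tcf3, which B-cell precursors also use, at -2.10. Id4 was dim, at -5.35 in Wt and -2.98 in Sipa1-/- MSCs. Tcf12 had -0.32 and Tcf4 0.86, and the median was 0.73. T cells had all 6 measured genes within 2-fold with a median of -0.05, from -0.78 for Id1 to 0.28 for Id2.

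Corepressors through which Snai and Zeb silence their targets were all measured, 16 of 16. In MSCs their median was -0.21, with 2 at least 2-fold higher and 3 lower. Wtip, of the Ajuba family of LIM proteins that bind Snai, had 1.96 and Ctbp2, a partner of Zeb, had 1.41, whereas the Polycomb genes Ezh2 and Suz12 had -2.88 and -1.57. Ezh2 went from 2.44 in Wt to -0.44 in Sipa1-/- MSCs, the same direction as the B-lineage markers, and a link between them was not tested. For CD8+ T cells all 16 were within 2-fold, with a median of 0.02.

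Kinases, ubiquitin ligases and deubiquitinases that set the half-life of Snai, Twist and Zeb proteins were listed, and 9 of 12 were measured. The deubiquitinases Usp27x, Usp51 and Dub3 were not among the measured genes. In MSCs none was 2-fold higher, Fbxl14, a ligase for Snai proteins, was lower at -1.24, and Gsk3b, the kinase that marks Snai1 for degradation, had 0.39 as the only ratio above 0. The median was -0.30 in MSCs and -0.10 for T cells, where all 9 were within 2-fold. Arrays measure RNA, so protein levels of the members are not known here.

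Signals and regulators known to induce the members were measured for all 18. In MSCs 10 were at least 2-fold higher and 1 lower, with a median of 1.25. Tgfb3, a ligand of the TGF-β family, went from 1.74 to 4.37, a ratio of 2.63, and Il6, an inflammatory cytokine, from -0.14 to 2.21, a ratio of 2.35. The single inducer past 2-fold in the other direction was Tgfb1, another TGF-β ligand that leukocytes express strongly, from 0.66 to -1.46, and Nfkb1 was even at -0.04. The T-cell pair had 3 of 18 at least 2-fold higher, namely Hmga2, Tgfb3 and Tgfb2 at 1.18, 1.14 and 1.10, and the median was 0.08. On those arrays Hmga2 was dim, at -4.99 in Wt and -3.80 in Sipa1-/- cells, as was Tgfb2, at -5.30 and -4.19. Egr1, an immediate early factor, had -0.85 there and 1.64 in MSCs, the directions that Snai1 had in the 2 sorts.

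Epithelial genes that these factors repress were mostly dim. In MSCs 15 of 21 were measured, and their median levels were -3.72 in Wt and -3.28 in Sipa1-/- cells, with a median ratio of 0.53. Krt19 and Pkp2 were at least 2-fold higher, at 2.48 and 1.64, and St14, a membrane protease, and Patj, a polarity protein, were lower at -3.49 and -1.95. E-cadherin (Cdh1) and Epcam did not pass the flags on both MSC arrays. Of the list, 13 were measured in T cells, with a median of 0.10, and Jup at 1.15 was the only one past 2-fold. Jup was dim there, at -4.96 in Wt and -3.82 in Sipa1-/- cells. Factors that oppose EMT were measured for 3 of 10 in MSCs, Klf4 at 1.84, Ovol2 at 0.56 and Grhl1 at -0.46, and for 2 in CD8+ T cells with a median of 0.17.

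Mesenchymal genes of the EMT programme, such as matrix proteins and proteases, were measured for all 16 in MSCs, all 16 were above 0 and 12 were at least 2-fold higher, with a median of 1.84. Postn had 2.54 and Col5a2 2.34, while Cdh11 with 0.11 and Vim with 0.69 were the lowest. The T-cell pair had 7 of 15 measured at least 2-fold higher, Mmp2 at 2.23 and Postn at 2.08 the most, and the median was 0.40. Vim, which T cells also express, was even there at -0.09.

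Other transcription factors of stroma were measured for 32 of 38 in MSCs, and 21 were at least 2-fold higher and 1 lower, with a median of 1.61. Pitx1, a hindlimb homeobox factor, had the largest ratio of the list, 3.26. Foxc1 had -1.57 and Sox4, which is also a factor of B-cell precursors, had -0.89. The members' ratios thus lay within the range of this list. Only 19 were measured in T cells, with a median of 0.44, and Osr2 at 2.13 and Osr1 at 1.28 were at least 2-fold higher. Both were dim in Wt T cells, Osr2 at -4.87 and Osr1 at -5.32, beside -2.74 and -4.04 in Sipa1-/- T cells.

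Because Zeb2 and Zeb1 have roles of their own in CD8+ T cells, genes of the effector and memory states were listed too. On the CD8+ T arrays the 11 measured effector genes had a median of 0.33 and none was past 2-fold, with Prdm1 at 0.91 and Ifng at 0.87 the highest and Gzma at -0.36 and S1pr5 at -0.21 the lowest. The 12 memory and naive genes had a median of -0.16 and none was past 2-fold, from -0.42 for Bcl2 to 0.21 for Eomes and Ccr7. Zeb1 and Zeb2 themselves, at 0.16 and 0.11, lay in the same narrow range. On the MSC arrays the lists had medians of 0.86 and -1.14, and Lef1, which B-cell precursors also express, had -4.61.

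**Figure D4:**
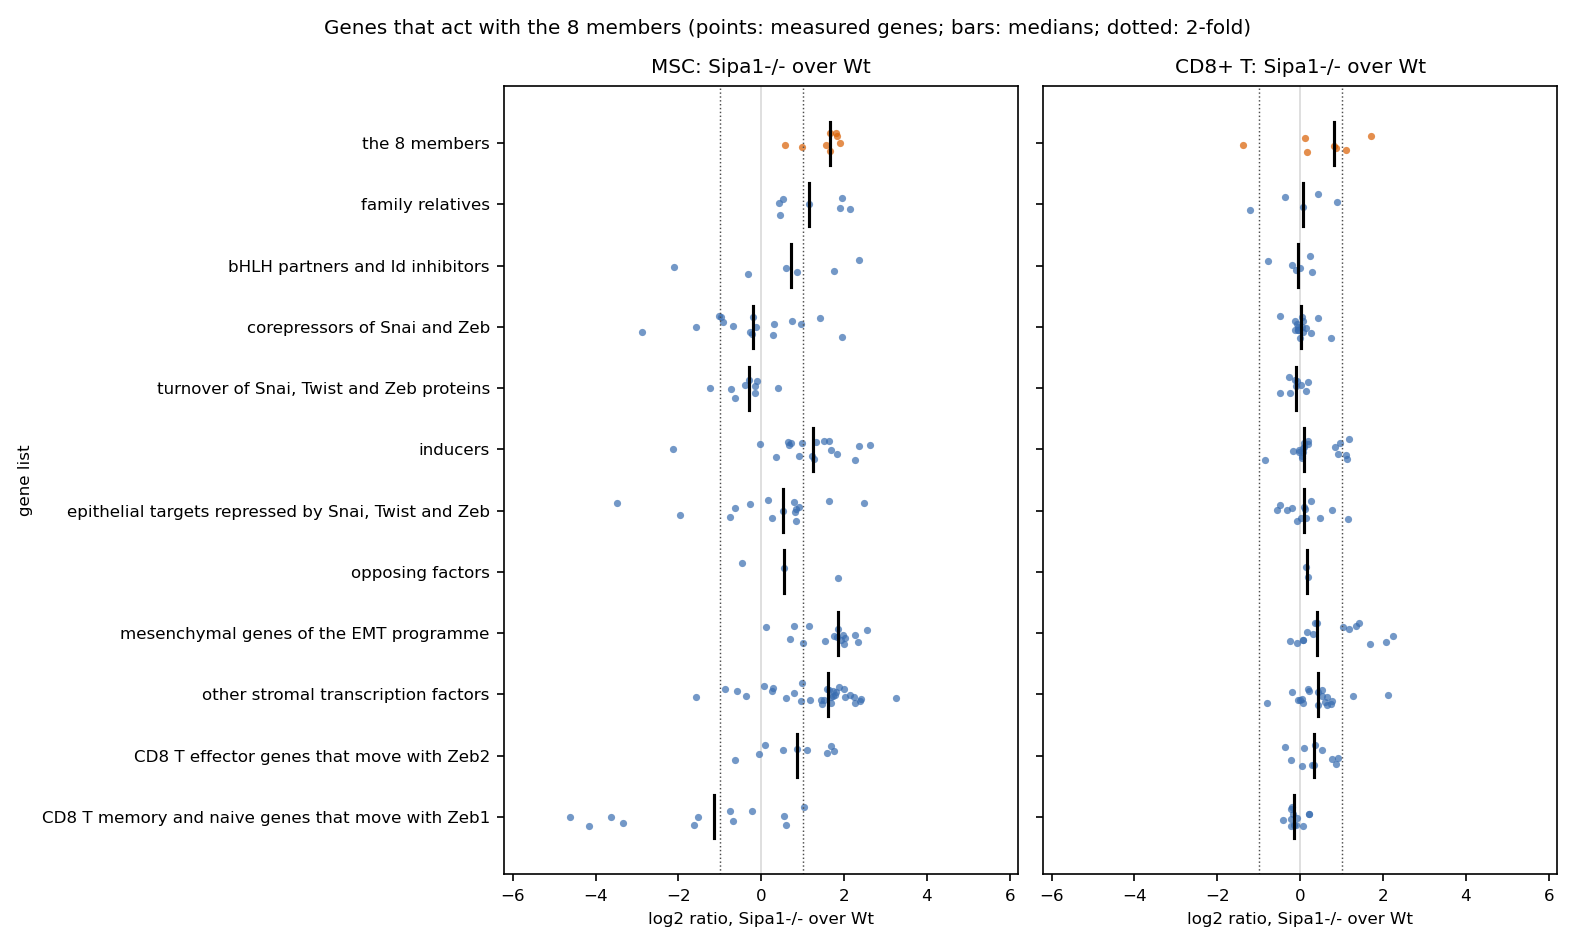
Log2 ratio of Sipa1-/- over Wt (x axis) for each measured gene of 11 lists of genes that act with the members (y axis), with bars at the medians and dotted lines at 2-fold. In MSCs the members, at 1.66, lie with the mesenchymal genes at 1.84 and the stromal factors at 1.61, and the corepressors and turnover genes lie at -0.21 and -0.30, whereas in CD8+ T cells every list other than the members has a median under 0.5.

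The genes whose pattern over the 4 arrays was most like each member were found by the root mean square difference of the log2 values, after each gene's own mean was taken off, among 12894 genes measured on all 4 arrays. With 4 points, each its own library, such likeness is a description of these arrays. For Snai1 they were Gda, Egr1 and Sorbs3, at differences of 0.24, 0.26 and 0.27, the loosest matches of any member. Egr1 read 3.47 in Wt and 5.11 in Sipa1-/- MSCs, against 2.17 and 1.32 on the T-cell arrays.

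For Snai2 the nearest were Prss23, Dennd2a and Plat, the tissue plasminogen activator, at 0.05, 0.07 and 0.08. For Twist2 they were Hspb8, Dpt and Ak1 at 0.05, 0.05 and 0.09, and Dpt, a matrix protein of dermis, is also in the fibroblast list. For Prrx1 they were Lamb1, Mmp23 and Sfrp1 at 0.03, 0.03 and 0.04, a laminin chain, a metalloprotease and a Wnt antagonist. For Prrx2 they were Hspg2, which encodes perlecan, Enah and S1pr3 at 0.03, 0.03 and 0.04.

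The Zeb genes had other neighbors, Uncx, Tmem104 and Nkain1 at 0.02, 0.02 and 0.04 for Zeb1, and Kalrn, St3gal5 and Usp46 at 0.05, 0.06 and 0.06 for Zeb2. The Zeb1 pattern came from its dimmer probe alone, and Uncx was near background, at -5.29 to -4.31. The SD of dim replicated probes, 0.14 to 0.42, is larger than the Zeb1 distances, so the rank of its neighbors is not settled. It is also larger than the distances of the nearest genes of Snai2, Twist2, Prrx1 and Prrx2. With probes averaged, those members were below -2 on the Wt CD8+ T array, so the ranks of their neighbors are not settled either. Among the members, Snai2 and Prrx1 were the closest pair at 0.23, then Snai2 and Twist2 at 0.31, Prrx1 and Twist2 at 0.34 and Prrx1 and Prrx2 at 0.38. Snai1 was nearest to Zeb2 at 0.87 and was 1.49 away from Snai2. Twist1 was left out because it was not well above background on the Wt CD8+ T array.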

How the data were processed

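RNA of sorted MSCs and CD8+ T cells was measured on 4 Agilent mouse arrays, 1 per condition, all on 1 slide. The deposited values are spot intensities that the authors' Feature Extraction software (version 12.0.3.1 per the file headers, 9.1 per the labels) had corrected for background, with no scaling between arrays. The deposited series matrix holds the same intensities, in linear signal, times 1 constant per array of unstated origin.

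Here log2 intensities were shifted by each array's 75th percentile, taken without control spots. A probe entered where all its spots passed 5 flags on both arrays (not saturated, uniform spot, uniform background, positive and significant, well above background). Spots, then probes of a gene, were averaged. Symbols came from RefSeq accessions (GRCm38.p6), which matched 57.6% of spots. A log2 ratio of 1 was the limit for counts. With 1 array per condition there was no test. Software error estimates assume a noise model and are drawn in the plot of levels only.

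The members, the 11 lists of related genes, the 13 marker lists and the settings were chosen with earlier results of these data known. Named genes are the members, Sipa1, the 3 nearest genes per member and the extremes of each list (highest and lowest 2), and a few others were chosen after their values were seen. Alternatives were a median shift, quantile normalization, the series matrix, normexp (offset 50, on the median spot signal), flags on 1 array, no flags, the brightest probe, genes above the median signal, a log2 limit of 0.5 and, after the data were seen, scaling on fibroblast markers. Steps were checked on simulated data. The software was R 4.3.3 with limma 3.58.1 and Python 3.11.15 with matplotlib 3.10.9, scipy 1.17.1, pandas 2.3.3 and numpy 2.4.6.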

Additional observations from a re-analysis of the deposited data

Results flagged for a closer look

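Snai1 went in opposite directions in the 2 sorts. Its log2 ratio of Sipa1-/- over Wt was 1.91 in MSCs and -1.37 in CD8+ T cells, each from 1 array against 1 array, and the difference between the sorts was not tested. The direction in each sort was the same under every alternative that retained it, with ranges of 1.77 to 2.11 in MSCs and -1.52 to -0.87 in CD8+ T cells, the fibroblast scale left aside. Because Snai1 has 1 probe, the flag settings, the brightest probe and, where it was retained, the median signal limit could only repeat the main value.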

How the results depend on the processing

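No paired analysis was possible because no condition had more than 1 array. Of the members' values recomputed under the alternatives, 62 of 62 kept their sign in the MSC pair, 47 of 50 in the CD8+ T pair, 47 of 50 in Wt cells between sorts and 60 of 60 in Sipa1-/- cells. Some of these values could not change, since measured members with 1 probe repeat their main value under both flag settings and the brightest probe. Members retained among genes above the median signal also repeat their main value. The offset of 50 in the normexp correction pulls ratios of dim spots toward 0 by construction. The fibroblast scale is left out of these tallies, since it takes 1 constant from every gene of a pair. By that construction the count of members at least 2-fold higher in MSCs, 6, went to 0, Prrx2 to -0.00384 and Prrx1 in CD8+ T cells to -0.452. In CD8+ T cells the count of 2 became 1 with a median shift, 1 with quantile normalization, 0 with normexp, 0 among genes above the median signal, 4 at the limit of 0.5 and 0 on the fibroblast scale. Between sorts, the restriction to genes above the median signal left 1 of 6 in Wt and 4 of 7 in Sipa1-/- cells, because fewer members were retained, and a median shift left 5 in Wt cells. Of the related genes, 58 in MSCs became 35 above the median signal and 2 on the fibroblast scale, and 13 in CD8+ T cells became 4 with normexp, 20 with flags on 1 array, 24 with no flags, 3 above the median signal, 30 at the limit of 0.5 and 0 on the fibroblast scale.

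The median shift moved the median of all genes by -0.14 in MSCs, -0.15 in CD8+ T cells, and by -0.23 and -0.22 between sorts in Wt and Sipa1-/- cells. The series matrix moved them by 0.21, 0.13, 0.45 and 0.53, in that order. Of genes past 2-fold, the higher share was 63.0% in MSCs, or 74.1% with the series matrix and 1.16% on the fibroblast scale. In CD8+ T cells it was 65.5%, or 52.5% with the median shift, 76.3% with the series matrix, 52.4% with normexp, 48.5% above the median signal and 0.0826% on the fibroblast scale. Between sorts it was 57.4% in Wt and 54.0% in Sipa1-/- cells, or 76.6% and 76.2% with the series matrix and 45.5% and 42.9% with the median shift. Genes at least 2-fold higher in CD8+ T cells numbered 381, or 108 with normexp, 681 with flags on 1 array, 1059 with no flags, 66 above the median signal, 1195 at the limit of 0.5 and 11 on the fibroblast scale. In MSCs the 2954 became 1827 with normexp, 1308 above the median signal, 4941 at the limit of 0.5 and 124 on the fibroblast scale. The causes were not tested. Dim members, such as Snai2 and Twist1 in CD8+ T cells, are limited by their closeness to background.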
